A study of Homo sapiens with 2 samples.

Results

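The genes of haem synthesis were examined in single-cell RNA-seq of blood-generating heart-forming organoids (BG-HFOs), 3D aggregates grown from the human embryonic stem cell line hES3 NKX2.5-eGFP, which carries a green fluorescent reporter of the cardiac transcription factor NKX2-5. The members were the rows of the gene table named ALAS1, ALAS2, ALAD, UROS, UROD, CPOX, PPOX, FECH and SLC25A38, 9 of 36601 genes, and all 9 were present in both matrices. The 2 organoids, BG-HFO 32.7 and BG-HFO 33.10, were both collected at day 14 of the same protocol, in which Matrigel-embedded aggregates received 2 phases of WNT modulation and haemato-endothelial cytokines. There was no untreated organoid and no second genotype, so the comparisons lie between cell lineages within the organoids.

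Haem is built in a chain that starts and ends in the mitochondrion and passes through the cytosol in between. The first and rate-limiting step joins glycine to succinyl-CoA and is carried out by ALAS1 in most cells and by ALAS2 in red cell precursors, while SLC25A38 brings the glycine into the mitochondrion. ALAD, UROS and UROD act in the cytosol, and CPOX, PPOX and FECH finish the porphyrin ring and insert the iron. Primitive red cells of the embryo use the product for embryonic globins such as HBZ, the zeta chain.

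Lineages were set by raw molecule counts (unique molecular identifiers, UMIs) of 1 gene each: HBZ of at least 50 UMIs for erythroid cells, PF4 of at least 20 for megakaryocytic cells, PTPRC of at least 2 for leukocytes, CDH5 of at least 2 for endothelial cells, MYH6 of at least 6 for cardiomyocytes, COL3A1 of at least 20 for mesenchymal cells and AFP of at least 20 for endodermal cells. A cell had to pass exactly 1 of these gates. Of 16792 and 19893 cells kept, the erythroid gate held 821 in BG-HFO 32.7 and 1871 in BG-HFO 33.10, and the megakaryocytic gate held 949 and 2672. The endodermal gate held 142 and 12 cells, so its values in BG-HFO 33.10 rest on very few molecules. Each gate was checked with 8 markers other than the gate gene, and all 8 were highest in their own lineage in both organoids. The gates and lists were chosen with earlier results of these data known, so this check is not independent. KLF1 and TFRC, among the erythroid markers, also belong to the haem-linked genes described below. Libraries held 191152562 and 233818881 UMIs in all, median UMIs per gated cell lay between 6994.5 and 17497 across lineages, and 100 barcode sequences occurred in both libraries. Cells past several gates (1145 and 1484) and past none (7556 and 8654) were set aside. No doublet caller was run. The median UMI count was 24994 and 26428 in the cells past several gates, against 3659 and 4865 in those past none.

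The 9 genes lie on 6 chromosomes (GRCh38, GENCODE v44). ALAS2 is on the X chromosome at chrX:55009055-55030977 and its counterpart ALAS1 at chr3:52198086-52214327. SLC25A38 lies at chr3:39383370-39397351 and CPOX at chr3:98579446-98593648. UROD lies at chr1:45010950-45015575, PPOX at chr1:161166056-161178013, ALAD at chr9:113386312-113401290, UROS at chr10:125784980-125823258 and FECH at chr18:57544377-57586732. No other gene of the matrix overlapped a member on its own strand, while ALAS2, UROD, PPOX and SLC25A38 each overlapped 1 gene on the opposite strand. Counts took in intronic reads, and the spans ran from 4626 bases for UROD to 42356 for FECH, so levels were compared between lineages and not between genes.

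RefSeq upstream windows (GRCh38.p14) were available for 8 of the 9 genes, UROS being the exception, with 2 start sites each for ALAD and PPOX. The letters AGATAA are a form of the core that GATA factors bind, and other forms were not searched. Read on both strands, they occurred within 250 bases upstream of the start in ALAS2, CPOX and PPOX. That is 3 of the 8 members, which have 10 windows together, beside 9.17% of all 35116 such windows. PPOX matched at only 1 of its 2 start sites. The letters CACCC, the core of sites for Krüppel-like factors such as KLF1, occurred in 5 members beside 54.7% of all windows. ALAD held them at both start sites and PPOX at 1. A count of members and a share of windows are unlike units and are not compared. The windows of both forms of the first enzyme and of CPOX, which had 2 matches, are shown. Each runs from 250 to 51 bases before the start, 5′ to 3′ on the strand of the gene, with AGATAA or its reverse complement in capitals.
ALAS2 (chrX:55031028-55031227, reverse strand): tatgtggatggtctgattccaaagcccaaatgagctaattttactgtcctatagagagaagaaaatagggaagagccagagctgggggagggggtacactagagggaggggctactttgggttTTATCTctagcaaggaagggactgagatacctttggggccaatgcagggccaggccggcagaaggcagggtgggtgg
CPOX (chr3:98593662-98593861, reverse strand): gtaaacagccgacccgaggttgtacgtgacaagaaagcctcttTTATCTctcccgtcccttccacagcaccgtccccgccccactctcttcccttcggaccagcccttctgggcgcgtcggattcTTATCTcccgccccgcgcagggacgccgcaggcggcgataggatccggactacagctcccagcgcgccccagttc
ALAS1 (chr3:52197833-52198032, forward strand): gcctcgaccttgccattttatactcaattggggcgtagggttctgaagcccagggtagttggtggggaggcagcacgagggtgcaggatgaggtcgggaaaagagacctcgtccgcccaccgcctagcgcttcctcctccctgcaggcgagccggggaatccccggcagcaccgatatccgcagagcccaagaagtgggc
The match in ALAS2 ended 122 bases before the start, those in CPOX 202 and 120 bases before it. The ALAS1 window held no AGATAA on either strand. A match of letters is a description and not a measured site.

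In erythroid cells 8 of the 9 genes stood above the mean of the 6 other lineages, in every case by more than the spread between organoids, and ALAS1 alone stood below it. Raw counts were summed per organoid and lineage into 14 sums, and levels are given per 1000000 UMIs of the sum (CPM). All tests were run on these sums with edgeR (quasi-likelihood), with p-values adjusted by Benjamini and Hochberg's method over 22024 genes. Both organoids came from 1 cell line and each gave all 7 lineage sums, so the p-values measure only the spread between these 2 organoids. Lineages differed widely, and 22.2% of all genes were called higher and 29.1% lower in erythroid cells, so a call by itself is common. The median log2 fold change was 2.73 over the 9 members and -0.19 over all genes tested. Without normalization factors the split over all genes moved from 4896 higher and 6410 lower to 2497 and 10211 and the median of all genes to -0.60, while the same directions held for the 9 members.

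**Figure D1:**
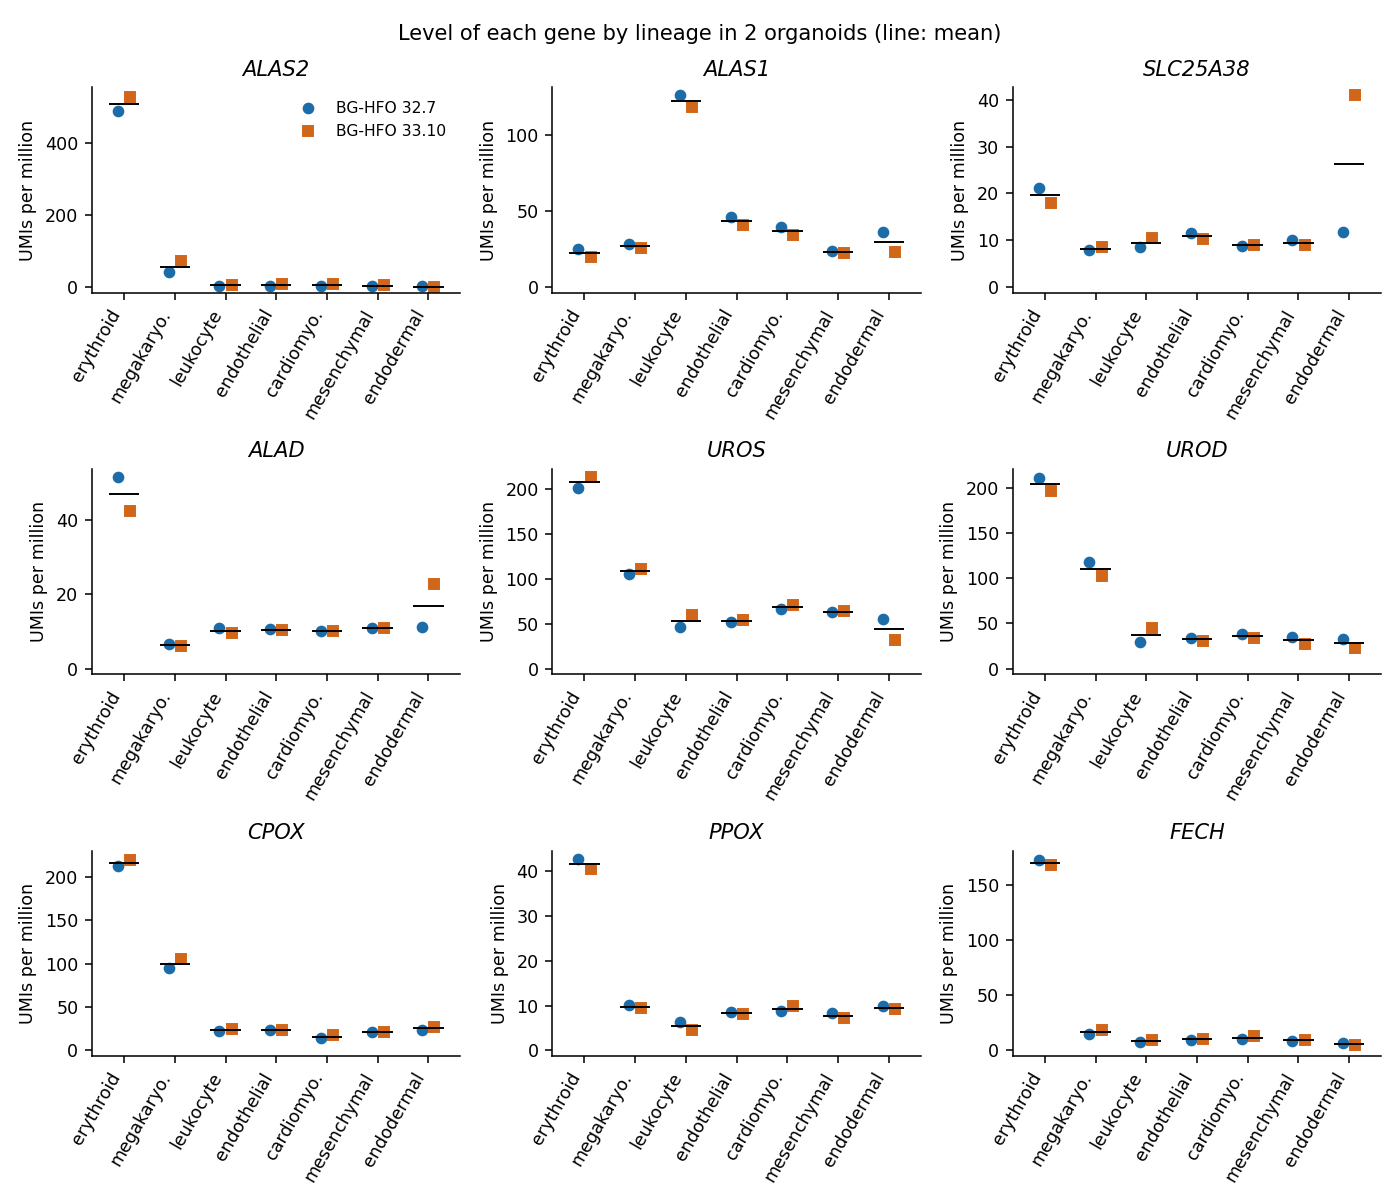
Level of each of the 9 genes in CPM (vertical axis, from 0) in 7 gated lineages (horizontal axis), with a circle for BG-HFO 32.7, a square for BG-HFO 33.10 and a line for their mean. ALAS2 stood at 491 and 529 in erythroid cells and at 9.57 or below outside the erythroid and megakaryocytic gates, whereas ALAS1 was highest in leukocytes at 126 and 118.

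ALAS2, the red cell form of the first enzyme, showed the widest range. Erythroid cells held 491 CPM in BG-HFO 32.7 and 529 CPM in BG-HFO 33.10. Megakaryocytic cells held 41.8 and 71.8 CPM, and the ranges of the leukocyte, endothelial, cardiomyocyte and mesenchymal levels overlapped one another between 1.75 and 9.57 CPM. Endodermal cells held 3 ALAS2 UMIs in BG-HFO 32.7 and 0 in BG-HFO 33.10, so no fold is given against them. With endodermal sums left out, the erythroid level exceeded the mean of the other 5 lineages by 6.35 ± 0.36 (SE) on the log2 scale (adjusted p = 2.1e-07, edgeR quasi-likelihood test, Benjamini-Hochberg adjusted). Against megakaryocytic cells alone the difference was 3.36 ± 0.55 (adjusted p = 0.00027, same edgeR test).

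ALAS1, which supplies haem for general use such as cytochromes, did not follow ALAS2. It stood at 24.9 and 19.7 CPM in erythroid cells, overlapping the mesenchymal 23.3 and 22.5 CPM, and both values lay below the 46.1 and 40.7 CPM of endothelial cells. Against the mean of the other lineages ALAS1 was lower by -0.43 ± 0.13 on the log2 scale (adjusted p = 0.016, edgeR quasi-likelihood test, Benjamini-Hochberg adjusted). This call was the weakest among the members: the adjusted p was 0.071 with all gate minimums doubled and 0.09 with cells past several gates assigned to their strongest gate. Taken singly, only leukocytes and endothelial cells were called as holding more ALAS1, and the leukocyte difference was by far the largest. The difference from the mean thus rests mainly on leukocytes. Against leukocytes the log2 difference was -2.19 ± 0.17 (adjusted p = 3.4e-07, 22.5% of all genes being lower) and against endothelial cells -0.49 ± 0.16 (adjusted p = 0.023, 29.3% being lower, lost in 4 of 12 alternatives with edgeR or DESeq2 at 0.078 to 0.12). Against mesenchymal cells ALAS1 was higher by 0.48 ± 0.17 (adjusted p = 0.025), but this turned to -0.05 (adjusted p = 0.79) in edgeR without normalization factors and had an adjusted p of 0.068 with gates halved. The differences from megakaryocytic (-0.08 ± 0.17), cardiomyocyte (-0.23 ± 0.17) and endodermal cells (-0.08 ± 0.24) did not pass, with adjusted p of 0.74, 0.27 and 0.83 in the same edgeR test. For cardiomyocytes the adjusted p was 0.045 with the organoid as a block and 0.00074 without normalization factors.

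SLC25A38, the glycine carrier, was modestly higher in erythroid cells. It stood at 21.2 and 18.1 CPM there and between 7.85 and 11.7 CPM in all other sums but 1. That sum, of endodermal cells of BG-HFO 33.10, read 41.1 CPM from 9 UMIs in 12 cells. The log2 difference from the other lineages was 1.35 ± 0.16 (adjusted p = 1.7e-05, edgeR quasi-likelihood test, Benjamini-Hochberg adjusted). Against endodermal cells it was 0.78 ± 0.35 and did not pass (adjusted p = 0.1, same edgeR test), and it was -0.55 without BG-HFO 32.7.

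The 3 cytosolic enzymes were all higher in erythroid cells but differed in their second-highest lineage. ALAD, which condenses the first precursor into a pyrrole, stood at 51.5 and 42.3 CPM in erythroid cells, and its megakaryocytic level of 6.64 and 6.16 CPM was the lowest of all lineages. UROS, which closes the ring, stood at 201 and 213 CPM in erythroid cells and at 105 and 111 CPM in megakaryocytic cells. UROD, which trims its side chains, followed the same order with 211 and 196 CPM against 118 and 102 CPM. Against the mean of the other lineages the log2 differences were 2.65 ± 0.11 for ALAD, 2.12 ± 0.09 for UROS and 2.73 ± 0.13 for UROD (adjusted p = 1.7e-09, 2.5e-09 and 4.3e-09, edgeR quasi-likelihood test, Benjamini-Hochberg adjusted).

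The 3 enzymes of the mitochondrial end behaved likewise. CPOX stood at 212 and 219.5 CPM in erythroid cells, at 94.8 and 105 CPM in megakaryocytic cells and between 14.4 and 27.4 CPM in all other sums. PPOX stood at 42.6 and 40.3 CPM in erythroid cells and at 10.1 or below elsewhere. FECH, which inserts the iron, stood at 173 and 168 CPM in erythroid cells and at no more than 18.1 CPM in megakaryocytic cells, the second-highest lineage. No erythroid value of these genes overlapped any value of another lineage. The log2 differences from the mean of the others were 3.38 ± 0.07 for CPOX, 2.74 ± 0.11 for PPOX and 4.53 ± 0.09 for FECH (adjusted p = 4e-12, 1.9e-09 and 2.2e-12, edgeR quasi-likelihood test, Benjamini-Hochberg adjusted).

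**Figure D2:**
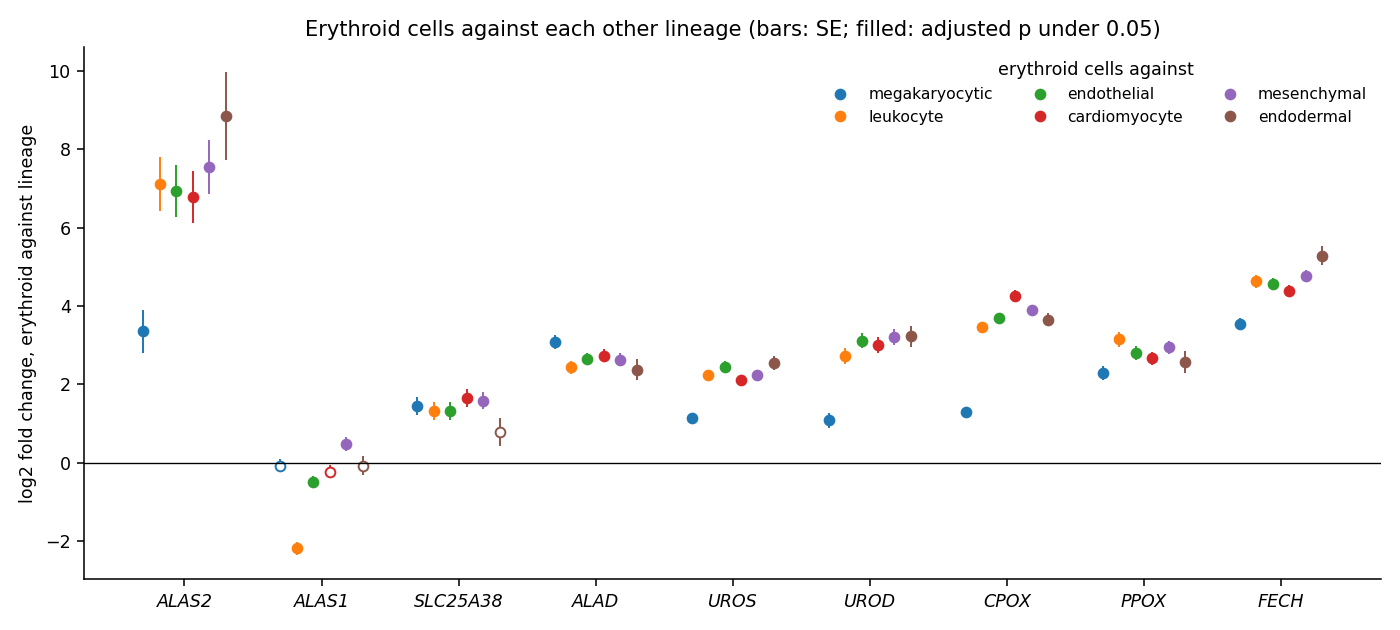
Log2 fold change of erythroid cells against each of 6 other lineages (vertical axis) for the 9 genes (horizontal axis), with SE bars, filled points where the adjusted p was under 0.05 and open points otherwise. The megakaryocytic points of UROS, UROD and CPOX lie at 1.13, 1.08 and 1.30, below all other lineages. Those of PPOX, ALAS2 and FECH, at 2.29, 3.36 and 3.55, also lie below all other lineages. The ALAS2 point against endodermal cells rests on 3 UMIs in the endodermal sums.

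Taken lineage by lineage, 8 members were higher in erythroid than in megakaryocytic cells (18.8% of all genes were), 8 than in leukocytes (17.2%), 8 than in endothelial cells (23.4%), 8 than in cardiomyocytes (23.6%), 9 than in mesenchymal cells (23.2%) and 7 than in endodermal cells (17.8%). The differences from megakaryocytic cells varied in size over the members. ALAD and FECH differed by 3.08 ± 0.17 and 3.55 ± 0.14 on the log2 scale, PPOX by 2.29 ± 0.17 and SLC25A38 by 1.45 ± 0.23. UROS (1.13 ± 0.14), UROD (1.08 ± 0.19) and CPOX (1.30 ± 0.11) differed less, although each passed (adjusted p = 2.2e-05, 0.00047 and 1e-06, edgeR quasi-likelihood test, Benjamini-Hochberg adjusted). Whether these differences differ between genes was not tested.

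Outside erythroid cells 7 of the 9 genes differed among the 6 lineages, beside 87.3% of all genes in this test, and ALAD (adjusted p = 0.066) and SLC25A38 (adjusted p = 0.28) did not pass (edgeR quasi-likelihood test, Benjamini-Hochberg adjusted). ALAD passed in 4 alternatives, at an adjusted p of 0.0069 to 0.034, and SLC25A38 in 1, at 0.015. The pairs among these lineages, 15 in number, were compared after the levels had been seen. Megakaryocytic cells, which share a precursor with red cells, held more ALAS2, CPOX, FECH, UROD and UROS than each of the 5 other non-erythroid lineages. In these lineages 21.6% (leukocytes), 25.4% (endothelial cells), 27.3% (cardiomyocytes), 24.8% (mesenchymal cells) and 18.8% (endodermal cells) of all genes were lower. The endodermal sums held only 3 and 0 UMIs of ALAS2 and 11 and 1 of FECH, so those 2 comparisons rest on few molecules. Against endothelial cells, for example, CPOX was higher by 2.38 ± 0.12 and UROD by 2.04 ± 0.20 on the log2 scale (adjusted p = 5.5e-09 and 1.7e-06, same edgeR test), while FECH was higher by 1.02 ± 0.14 (adjusted p = 4.1e-05). ALAD did not follow: it was lower in megakaryocytic cells than in leukocytes (-0.64 ± 0.18, adjusted p = 0.012, 23.0% of all genes being lower) and mesenchymal cells (-0.45 ± 0.17, adjusted p = 0.04, 30.6% being lower), and the other 3 differences did not pass.

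Megakaryocytic cells also carried globin transcripts beside their ALAS2. Globin genes made up 2.44% and 2.58% of their UMIs, against 10.9% and 10.3% in erythroid cells and 0.0276% to 0.144% in the other lineages. HBZ itself was at 115 and 231 CPM, so there were 363 and 311 ALAS2 UMIs per 1000 HBZ UMIs, against 10.4 and 12.9 in erythroid cells. The gates kept cells with 50 or more HBZ UMIs out of all other lineages, so the gates themselves bear on this ratio. HBD, the delta chain, was at 16.3 and 42.4 CPM in erythroid cells and at 1154 and 1103 CPM in megakaryocytic cells without any ALAS2 UMI. When the erythroid profile was subtracted from each other sum until its HBZ came to 0, the megakaryocytic ALAS2 level was 40.7 and 69.2 CPM. This subtraction was scaled on HBZ, the gate gene, so it could not remove ALAS2 RNA from cells low in HBZ. The source of the megakaryocytic ALAS2 was not tested.

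In leukocyte, endothelial, cardiomyocyte and mesenchymal cells ALAS2 was 1.82 to 3.69 times as high in BG-HFO 33.10 as in BG-HFO 32.7. The erythroid gate held 4.89% of the cells of BG-HFO 32.7 and 9.41% of those of BG-HFO 33.10. In these 4 lineages ALAS2 stood at 28.7 to 78.9 UMIs per 1000 HBZ UMIs, and after the subtraction 1.28 to 7.95 CPM remained. The subtraction has the same limit here, and whether these low levels came from free RNA was not tested.

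To compare the share of cells with a UMI, cells were thinned to 2500 UMIs, leaving out 80 and 75 shallower erythroid cells. An ALAS2 UMI was then found in 59.0% of erythroid cells of BG-HFO 32.7 (exact Clopper-Pearson 95% interval 55.3 to 62.5) and 69.2% of those of BG-HFO 33.10 (67.0 to 71.3). Megakaryocytic cells gave 6.60% (4.97 to 8.56) and 12.4% (11.1 to 13.8), and the leukocyte, endothelial, cardiomyocyte and mesenchymal gates gave 0.260% to 1.82%, which serves as the background. Endodermal cells gave 0.752% in BG-HFO 32.7 and 0 of 11 in BG-HFO 33.10, which allows a share of up to 27.3% when 3 counts of 11 are taken as the limit and 28.5% by the exact interval. Unthinned, 87.8% and 91.8% of erythroid cells held an ALAS2 UMI. The intervals cover counting error only.

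Among the thinned erythroid cells CPOX was found in 37.4% and 41.6%, UROD in 38.1% and 34.7%, UROS in 35.5% and 38.9% and FECH in 32.8% and 33.4%. ALAD and PPOX were found in 9.91% to 11.5%, and ALAS1 and SLC25A38 in 3.51% to 5.53%. The median erythroid cell held UMIs of 2 of the 9 genes at this depth, and 7.15% and 6.96% held 5 or more. The median was 1 gene in megakaryocytic cells.

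Leukocytes held the most ALAS1. The level was 126 and 118 CPM, above both values of every other lineage, and ALAS1 was higher there than in each of them, for instance by 1.70 ± 0.16 on the log2 scale than in endothelial cells, the next lineage (adjusted p = 1.6e-06, edgeR quasi-likelihood test, Benjamini-Hochberg adjusted, 24.6% of all genes being higher), and by 2.67 ± 0.17 than in mesenchymal cells (adjusted p = 3.8e-08, 27.7% being higher). The differences from cardiomyocytes (1.97 ± 0.17, 29.8% being higher) and endodermal cells (2.12 ± 0.23, 21.8%) also passed, and megakaryocytic cells differed from leukocytes by -2.11 ± 0.17. A UMI of ALAS1 was found in 19.2% and 19.1% of thinned leukocytes. Of the other 8 genes none was called between leukocytes and endothelial cells (49.4% of all genes were), and the largest difference was 0.39 ± 0.20 for UROD (adjusted p = 0.12, same edgeR test).

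Within the leukocyte gate ALAS1 was not evenly spread. The gate was split, after the levels had been seen and without a test, by UMIs of the complement C1Q genes, which mark tissue macrophages, and of MPO, the peroxidase of neutrophil and monocyte precursors, itself a haem enzyme. Cells with 5 or more C1Q UMIs and under 5 of MPO numbered 431 and 216 and held 37.4 and 55.8 CPM of ALAS1. Cells with 5 or more MPO UMIs and under 5 of C1Q numbered 210 and 49 and held 242 and 174 CPM. Cells with under 5 of both held 151 and 177 CPM. Both C1Q values of ALAS1 were thus below all its other values. UROS stood at 47.1 and 44.9 CPM in the C1Q cells and at 42.4 and 55.3 CPM in the MPO cells. In cells with under 5 of both UROS stood at 51.4 and 79.5 CPM, above its C1Q value in each organoid.

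**Figure D3:**
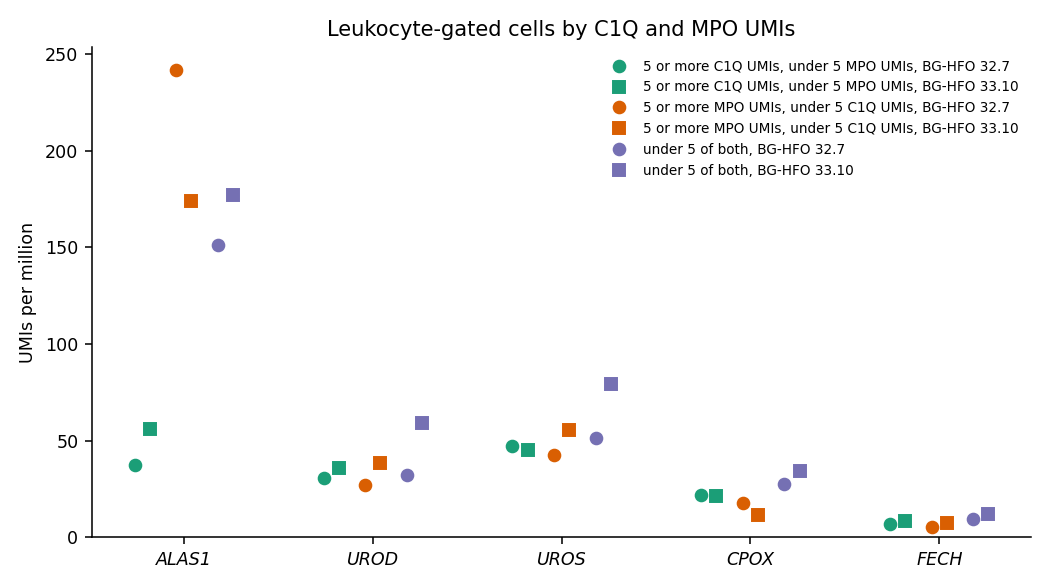
Level of 5 genes in CPM (vertical axis, from 0) in leukocyte-gated cells split by UMIs of C1Q and MPO (colours), with circles for BG-HFO 32.7 and squares for BG-HFO 33.10. ALAS1 lies at 37.4 and 55.8 in the C1Q cells and at 151 to 242 in the others, while the other 4 genes lie below 80 in all of them.

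The erythroid gate is a threshold on a continuous scale, so the members were also described along HBZ in cells past no other gate. ALAS2 went from 11.9 and 27.9 CPM in cells with 0 HBZ UMIs to 597 and 608 CPM in cells with 1000 or more. Cells just below the gate (25 to 49 HBZ UMIs) held 198 and 313 CPM of ALAS2, and those just above it (50 to 99) held 286 and 344. FECH went from 9.50 and 10.6 CPM to 196 and 187, and CPOX from 26.7 and 33.9 to 255 and 230.2. ALAS1 went from 45.3 and 37.3 CPM to 25.03 and 15.9, but not steadily. It read 64.8 and 38.7 CPM at 1 to 9 HBZ UMIs, and 48.2 and 26.0 CPM at 50 to 99. HBZ UMIs grow with a cell's depth as well as with its HBZ share, and no test was made.

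**Figure D4:**
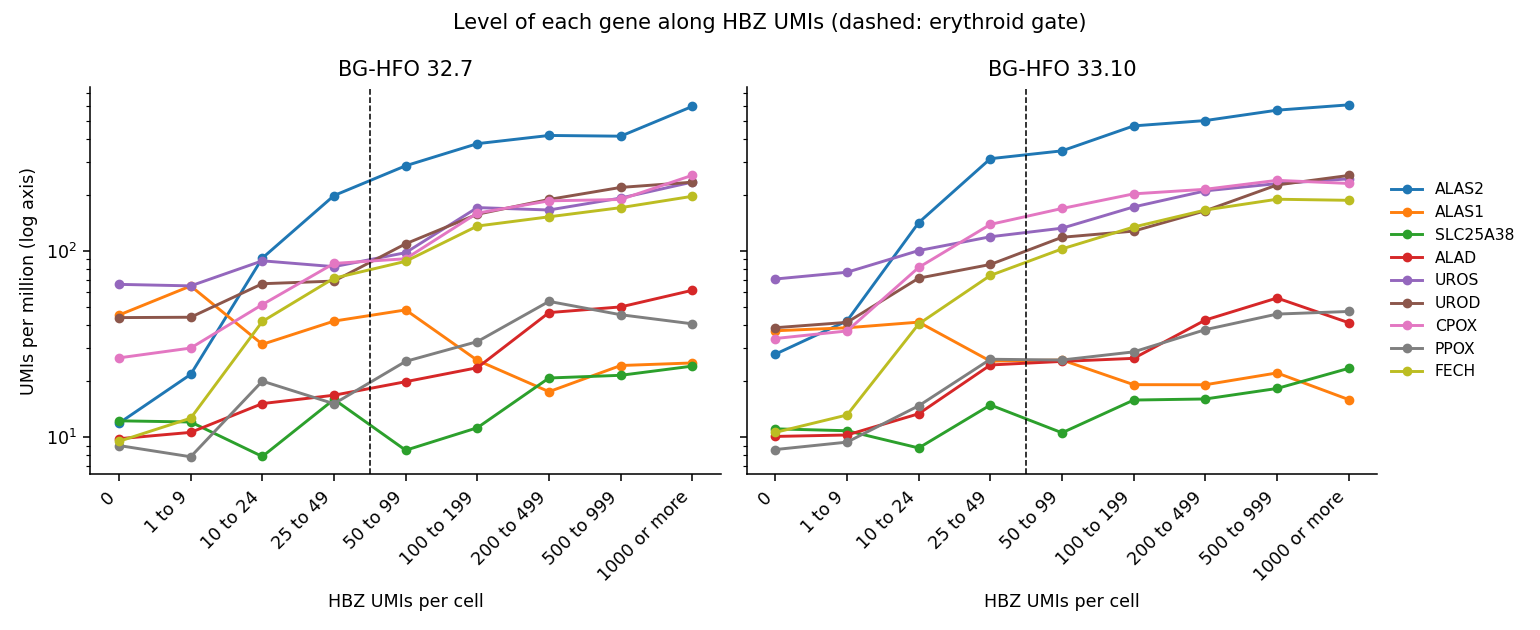
Level of the 9 genes in CPM (vertical log axis) in cells grouped by their HBZ UMIs (horizontal axis) for BG-HFO 32.7 (left) and BG-HFO 33.10 (right), with the erythroid gate as a dashed line. ALAS2 rises from 11.9 and 27.9 at 0 HBZ UMIs to 597 and 608 at 1000 or more, and ALAS1 ends lower than it began.

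Within the gate, the erythroid cells of each organoid were divided into 3 equal bins by the HBZ share of their UMIs. ALAS2 stood at 310 and 394 CPM in the lowest bin, 498 and 536 in the middle and 689 and 697 in the highest. UROS went from 155 and 161 to 258 and 272 CPM, and FECH from 123 and 128 to 211 and 201. ALAS1 went from 28.9 and 23.0 CPM in the lowest bin to 22.2 and 13.6 in the highest. As a description without a test, the other 8 genes stood higher in the highest than in the lowest bin in both organoids, with ALAD going from 43.4 and 35.1 to 61.4 and 43.1 CPM. TFRC, the transferrin receptor that takes up iron, went from 352 and 284 CPM to 173 and 203.

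Cycling erythroid cells held less ALAS2 than non-cycling ones, and no other member passed. Cells with 2 or more UMIs of MKI67 and TOP2A together (333 and 556 cells) were summed against those with 0 (398 and 1082 cells), and 14788 genes were tested. ALAS2 stood at 406 and 453 CPM in cycling and 652 and 638 CPM in non-cycling cells, without overlap. The log2 difference was -0.71 ± 0.10 (adjusted p = 0.0039, edgeR quasi-likelihood test, Benjamini-Hochberg adjusted), 5.77% of all genes being lower. With cells past several gates assigned, the difference was -0.88 but the adjusted p was 0.057. PPOX stood at 40.7 and 34.6 CPM against 45.4 and 46.4 CPM and did not pass (adjusted p = 0.1, same edgeR test), although it did with the organoid as a block (adjusted p = 0.023). The other 7 differences lay between -0.25 and -0.01. Cycling cells were deeper, with median UMIs of 23833 and 17365.5 against 8206 and 7840.5, and their HBZ level was 43276 and 38225 CPM against 53827 and 44115. The part of depth and of HBZ level in the ALAS2 difference was not tested.

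Genes of haem transport, breakdown, iron supply and erythroid control around the pathway were taken from a list of 43, of which 42 could be tested. In erythroid cells 27 were higher than in the other lineages (64.3%, against 22.2% of all genes), 5 were lower (11.9%, against 29.1%) and 10 did not pass. Their median log2 fold change was 0.65, against -0.19 for all genes. Without normalization factors the counts were 19 higher and 10 lower, beside 2497 higher and 10211 lower over all genes tested. The median of the listed genes was then 0.23, against -0.60 for all genes. The number lower was 3 with cells past several gates assigned, 4 with gates halved and 7 with the replicate block.

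The 6 with the largest positive differences were KLF1, SLC25A37, BLVRB, GATA1, TFRC and SLC6A9. KLF1, a transcription factor of red cells, stood at 216 and 203 CPM in erythroid cells and at 13.9 and 19.3 CPM in megakaryocytic cells, the next lineage, a log2 difference of 6.85 ± 0.29 from the mean of the others (adjusted p = 2.5e-09, edgeR quasi-likelihood test, Benjamini-Hochberg adjusted). SLC25A37, the mitochondrial iron importer mitoferrin-1, stood at 1512 and 1941 CPM, higher by 4.60 ± 0.12. BLVRB, a biliverdin reductase, stood at 1549 and 1526 CPM, higher by 4.59 ± 0.09. TFRC was higher by 3.40 ± 0.09 and SLC6A9, a glycine transporter of the cell membrane, by 3.35 ± 0.15 (adjusted p = 2.7e-11 and 2.9e-09, same edgeR test). GATA1 was higher by 3.48 ± 0.33 than the mean of the other lineages, but its megakaryocytic level of 267 and 259 CPM exceeded the erythroid 109.6 and 103 CPM.

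The 5 that were lower in the main fit were FLVCR2, ABCG2, PGRMC1, HMOX2 and BACH1. FLVCR2, a membrane transporter, was lower by -3.25 ± 0.38, with 0.151 and 0.286 CPM in erythroid cells and 17.8 and 13.3 CPM in leukocytes. Its median over the non-erythroid sums was 2.13 CPM and its lowest value there 0. ABCG2, an exporter that can carry porphyrins, was lower by -2.04 ± 0.34 (adjusted p = 0.00026, edgeR quasi-likelihood test, Benjamini-Hochberg adjusted). PGRMC1, a haem-binding membrane protein, was lower by -0.70 ± 0.12, and HMOX2, the constitutive haem oxygenase, by -0.38 ± 0.12 (adjusted p = 0.00037 and 0.016, same edgeR test). HMOX2 stood at 23.2 and 21.7 CPM in erythroid cells, above the lowest non-erythroid sum at 17.4 CPM. BACH1, a repressor that binds haem, was lower by -0.33 ± 0.10, at 50.6 and 62.4 CPM in erythroid cells against 158 and 186 CPM in leukocytes. Its lowest non-erythroid sum, at 54.7 CPM, lay between the 2 erythroid values. HMOX1, the inducible haem oxygenase, did not pass (0.82 ± 0.39, adjusted p = 0.098, same edgeR test).

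**Figure D5:**
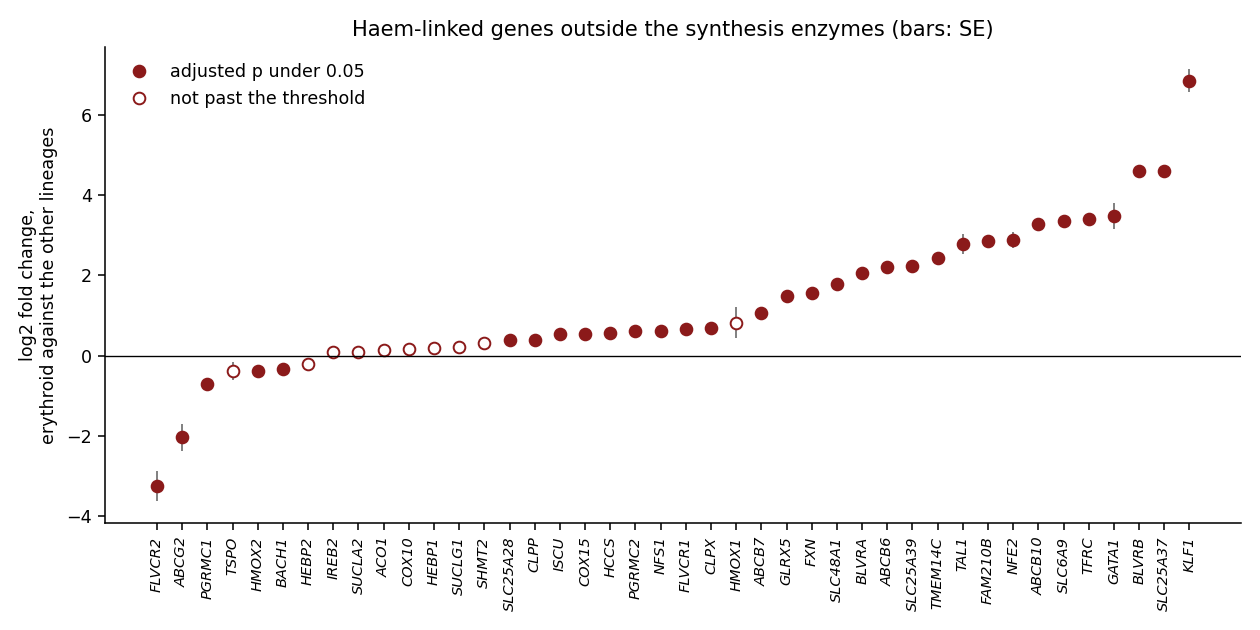
Log2 fold change of erythroid cells against the mean of 6 other lineages (vertical axis, SE bars) for the 42 tested haem-linked genes in order of size (horizontal axis), filled where the adjusted p was under 0.05. KLF1 lies highest at 6.85 and FLVCR2 lowest at -3.25, with 27 filled points above 0 and 5 below.

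Across the 14 sums the genes whose log2(CPM + 1) followed ALAS2 closely, among 16204 genes that reached 5 CPM, included KLF1 (Pearson's r = 0.979), HBA2 (0.978), RFESD (0.977) and SLC25A37 (0.974). The points share 2 libraries, and 2 of the 14 were erythroid, so this is a description of the lineage pattern. On the same ranking UROS came 7th at 0.967, UROD 17th at 0.947, FECH 22nd at 0.940 and CPOX 33rd at 0.912. PPOX stood at 0.805, ALAD at 0.497, SLC25A38 at 0.0609 and ALAS1 at -0.338.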

How the data were processed

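Single cells of 2 organoids were profiled with the Chromium 3′ kit. Per the file headers the authors used Cell Ranger 7.0.0 to make the deposited raw count matrices (UMIs per gene and cell, not normalized), on GRCh38 per the labels. Intronic reads were counted per the study's methods, which place the removal of ambient RNA after this step and do not state whether the deposited matrices precede an aggregation to equal depth. Here barcodes with 50 to 11000 detected genes and less than 30% of UMIs from mitochondrial genes were retained, gated on raw UMIs and summed per organoid and lineage. Free RNA was not removed in the main analysis. Sums were tested with edgeR 4.0.16 (quasi-likelihood, TMM, filterByExpr, Benjamini-Hochberg, threshold 0.05; R 4.3.3), with DESeq2 1.42.0 among the alternatives, and levels were computed with numpy and pandas in Python. TMM factors ran from 0.765 to 1.19. Tested on simulated data, 80 of 100 genes changed by 1 on the log2 scale and 92 of 100 changed by 2 were recovered between erythroid cells and the others, and 4.97% of calls were false. Between erythroid and megakaryocytic cells 64 and 96 of 100 were recovered and 5.88% of calls were false. Between cycling and non-cycling cells 8.6% of calls were false. The simulated sums were independent and shared a common profile apart from 200 changed genes. In the data 51.3% of genes were called between erythroid cells and the others, so these rates do not carry over to the real calls.

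Lineages of 1 organoid are paired by design, since each organoid was dissociated and sequenced as 1 library. The organoids' deviations correlated at 0.01 to 0.46 over 21 lineage pairs, and 15 exceeded 0.1. The main fit has no block, and a replicate block is an alternative. The genes, the gates and the lists were chosen with earlier results of these data known. Named genes are the 9 members, the haem-linked genes of the list past the threshold with the 6 largest log2 fold changes per direction, and the 5 genes most correlated with ALAS2, of which 1 is not reported here. A further step of the pathway is not analysed here.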

Additional observations from a re-analysis of the deposited data

Results flagged for a closer look

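ALAS2 UMIs were also present in cells that the comparisons between lineages do not use, given here as a description with no test. Cells past no gate held 9.91% of the ALAS2 UMIs of BG-HFO 32.7 and 11.8% of those of BG-HFO 33.10. They held 20.6% and 24.1% of all UMIs. Cells past several gates held 15.8% and 20.0% of the ALAS2 UMIs, beside 16.9% and 19.1% of all UMIs. The erythroid gate held 67.5% and 56.8% of the ALAS2 UMIs. Among the cells past no gate, 55 and 158 cells had 5 or more ALAS2 UMIs. These cells had a median of 2 HBZ UMIs in both organoids but medians of 130 and 71.5 HBE1 UMIs and 183 and 110 HBG2 UMIs, and KLF1 was at 151 and 126 CPM. FECH stood at 101 and 88.2 CPM and ALAS1 at 17.2 and 26.2 CPM in them. The erythroid gate, set on HBZ, therefore did not take up every cell with these transcripts.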

How the results depend on the processing

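Of 12 alternatives with a test, none changed the direction or the call of ALAS2, CPOX, FECH, UROD, UROS, PPOX, ALAD or SLC25A38 between erythroid cells and the mean of the other lineages, and 7 members were highest in erythroid cells under all level alternatives. Endodermal sums left out and plain CPM without normalization factors were added after seeing the data. Between cycling and non-cycling erythroid cells the number of genes called, 2181, was 488 with cells past several gates assigned, 882 with doubled gates, 3328 with halved gates, 3395 without a filter on low counts and 3994 with the replicate block. Members lower in cycling cells numbered 1, but 0 with cells past several gates assigned and 2 with the replicate block. The mean share of erythroid cells with an ALAS2 UMI was 64.1% at 2500 UMIs, 84.8% at 5000 and 89.8% unthinned. In the same comparison the log2 value of ALAD (-0.01) was 0.13 with halved gates, 0.03 without a filter and 0.11 in plain CPM, and that of UROD (-0.01) was 0.13, 0.03 and 0.11, and 0.05 under the stricter cell filter. ALAS1 (-0.07) was 0.13 with cells past several gates assigned, 0.15 with doubled gates and 0.05 in plain CPM. Against endodermal cells ALAS1 (-0.08) was 0.11 with cells past several gates assigned and 0.02 with doubled gates, and against mesenchymal cells (0.48) it was -0.05 in plain CPM. Leaving out 1 organoid leaves no residual degrees of freedom, so it gives values only: ALAD 0.17 and -0.13 and UROD 0.13 and -0.07 between cycling states, and ALAS1 0.43 and 0.01 and SLC25A38 -0.55 and 1.38 against endodermal cells. SLC25A38 against endodermal cells passed with no filter (adjusted p = 0.043, edgeR). The replicate block called PPOX between cycling states and ALAS1 against cardiomyocytes and changed no other member call. The cause of these changes was not tested. With 2 organoids of 1 line, and 12 endodermal cells in BG-HFO 33.10, small differences are not resolved.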

Other observations

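Megakaryocytic cells were described by their ALAS2 UMIs, chosen after the levels were seen and without a test. Cells with 3 or more ALAS2 UMIs numbered 46 and 229, and those with none numbered 810 and 2029. The former were deeper than the latter, with median UMIs of 12045.5 and 10941 against 7654.5 and 7907, and the part of depth was not tested. HBE1, the epsilon globin, stood at 9202 and 10155 CPM in the former and at 3367 and 3386 CPM in the latter. KLF1 stood at 47.6 and 58.4 CPM against 9.08 and 12.7 CPM. Both were thus higher in the former in each organoid, and of the other 8 members so were CPOX, FECH and UROS. CPOX stood at 218 and 181 CPM against 82.9 and 88.9, and FECH at 32.8 and 34.7 against 13.7 and 15.4. UROS differed less, at 113 and 148 CPM against 105 and 104. UROD was lower in both organoids, at 88.7 and 81.4 CPM against 121 and 109. ALAS1 and SLC25A38 also read lower in both, SLC25A38 at 1.64 and 6.52 CPM against 8.23 and 8.48. ALAD and PPOX read higher in BG-HFO 32.7 and lower in BG-HFO 33.10. In the 46 cells of BG-HFO 32.7 the levels of ALAS1, SLC25A38, ALAD and PPOX rest on few molecules. The directions of these genes are therefore not resolved. PF4, the gate gene, stood at 12949 and 10683 CPM in the cells with 3 or more ALAS2 UMIs and at 14896 and 14555 CPM in those with none. The megakaryocytic markers PPBP and GP9 were also lower in the former. PPBP stood at 6725 and 4714 CPM against 11264 and 10055, and GP9 at 565 and 329 CPM against 787 and 725.

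HMOX1 differed between the organoids within the MPO cells of the leukocyte gate, at 25.5 CPM in BG-HFO 32.7 and 146 CPM in BG-HFO 33.10, the latter from 49 cells. It stood at 112 and 128 CPM in the C1Q cells.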
